A study of Mus musculus with 2 samples.

Results

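Intermediate filaments are the rope-like cytoskeletal polymers that give cells mechanical strength, and each cell type builds them from its own choice of subunit genes. The 10 genes described here are Gfap, Vim, Nes, Nefl, Nefm, Nefh, Ina, Des, Synm and Lmna, taken by symbol from the 32285 genes of 2 single-cell count tables of mouse striatum. The libraries are replicates 1 and 2 of 1 untreated condition, made with 10x Genomics chemistry from dissociated striatal tissue of adult mice. The labels give the age as 8-10 weeks, and the series' design text and the study's methods give other ages. The labels call the cells glia enriched and the strain C57/Bl6J, while the extract protocol names C57BL/6NTac, and the number of mice behind each library is not given. All cells carry the same genotype and treatment, so the comparisons made are between cell classes and not between conditions.

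In the textbook account, Gfap and Vim form the filaments of astrocytes, and Nes is the filament gene of neural progenitors and of growing vessels. Nefl, Nefm and Nefh encode the light, medium and heavy neurofilament subunits of neurons, and Ina encodes α-internexin, their partner. Des encodes desmin, the muscle filament, and Synm encodes synemin, a large subunit that polymerizes only together with others such as vimentin and desmin. Lmna encodes lamins A and C, which line the inside of the nuclear envelope in many cell types.

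The genes lie on 7 chromosomes of the mouse genome build GRCm38 (GENCODE vM21). Gfap is at chr11:102887336-102900912, Vim at chr2:13573927-13582826, Nes at chr3:87971078-87980451 and Lmna at chr3:88480147-88509956. Des is at chr1:75360329-75368579, Synm at chr7:67730160-67759742, Ina at chr19:47014698-47025327 and Nefh at chr11:4938754-4948064. Nefl, on the plus strand at chr14:68083863-68089095, lies within the annotated span of Nefm, on the minus strand at chr14:68082590-68124846, and the 10x assay keeps the strand of each read. Counts of 3′ ends do not resolve isoforms and are not compared between genes here.

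RefSeq promoters (GRCm38.p6) were at hand for 7 of the 10 genes, namely Gfap, Vim, Nes, Ina, Des, Synm and Lmna. Of Vim, Des, Synm and Lmna, all highest in the smooth muscle class described below, those of Des and Synm are shown, since their runs lie outside the annotated gene spans given above and the other two do not. Each run holds the 250 bases before the RefSeq start, written 5′ to 3′ on the gene's strand, and the RefSeq start of Des lies upstream of the GENCODE start. Capitals mark E boxes, the letters CANNTG, which read the same on both strands. The Des run is chr1:75360042-75360291 on the plus strand and the Synm run is chr7:67759743-67759992 on the minus strand.
Des: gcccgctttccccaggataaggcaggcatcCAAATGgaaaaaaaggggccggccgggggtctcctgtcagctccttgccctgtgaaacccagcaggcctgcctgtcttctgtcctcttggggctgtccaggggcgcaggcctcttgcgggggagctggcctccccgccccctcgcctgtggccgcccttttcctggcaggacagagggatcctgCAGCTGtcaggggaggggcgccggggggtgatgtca
Synm: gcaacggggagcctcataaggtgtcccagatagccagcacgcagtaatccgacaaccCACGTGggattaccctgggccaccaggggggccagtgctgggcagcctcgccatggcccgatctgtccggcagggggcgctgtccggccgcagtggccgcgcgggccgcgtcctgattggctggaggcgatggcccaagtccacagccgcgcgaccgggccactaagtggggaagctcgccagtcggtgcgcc
The Des run holds 2 E boxes and the Synm run 1. Of all 32851 promoters in the table, 66.2% held at least 1 E box in the same 250 bases, so such a match is common. The TATA box letters TATAAA, searched on both strands, were in 12.4% of promoters, in neither of these runs and, among the 7 genes, in that of Vim, 32 bases before the start. The CArG box, the serum response element of many muscle genes, was in 1.47% of promoters and in neither of these runs.

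Library 1 held 6978 barcodes and 44597660 UMIs, and library 2 held 5437 barcodes and 37982720 UMIs. After a minimum of 300 detected genes and removal of called doublets, 6802 and 5205 cells remained, and 9 barcodes occurred in both libraries. Cells were clustered without the 10 genes and without the related genes listed below, and clusters were named from markers of each cell type. Names carry the sense of "-like" throughout, and classes were rebuilt here rather than taken from the study. At a coarse resolution, 9 classes held 10019 cells. The coarse neuroblast class, of 1644 cells, merged neuroblasts with cycling progenitors and most ependymal cells. Counts over the 9 classes and the search for similar genes below use this merged class. A further cluster of 1891 cells stayed unnamed, and a finer clustering placed 1477 of those cells with astrocytes and 390 with a neuron class led by Sst. The finer clustering gave 15 classes with 11910 cells, and levels are given for those. The level of a gene is its summed UMIs over all UMIs of the class, scaled as counts per 1e6 (CPM), 1 value per library. Neither library held a culture or animal label, so p-values measure the spread between these 2 libraries only, which may be technical.

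Over the coarse classes, the filament genes were called about as often as all genes were. In the edgeR quasi-likelihood fit with library as a block, a gene was called at a Benjamini-Hochberg adjusted p under 0.05. Over the 9 classes, each set against the mean of the others' fitted log2 levels, 50 of 90 gene and class tests were called, where 49.5% of all such tests over 15358 genes were. Over the 15 finer classes the count was 68 of 150, against 39.1% of all tests over 14435 genes. The finer set was added after the data were seen. In it, Nes, Nefm, Nefh and Des had at least 1 class with no UMI in either library, and their fitted differences from a mean over classes depend on the small count added before logarithms. For the other 6 genes the count was 54 of 90. The share among all genes with a UMI in every class was not counted, so 39.1% is not a like background for it. Below only those 6 are set against a mean. That mean is over log2 levels, so a class can lie above it and still below the arithmetic mean of the CPM values, which the highest class dominates. Where values of classes or groups are said below not to overlap, the share of all genes without overlap was not counted.

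**Figure D1:**
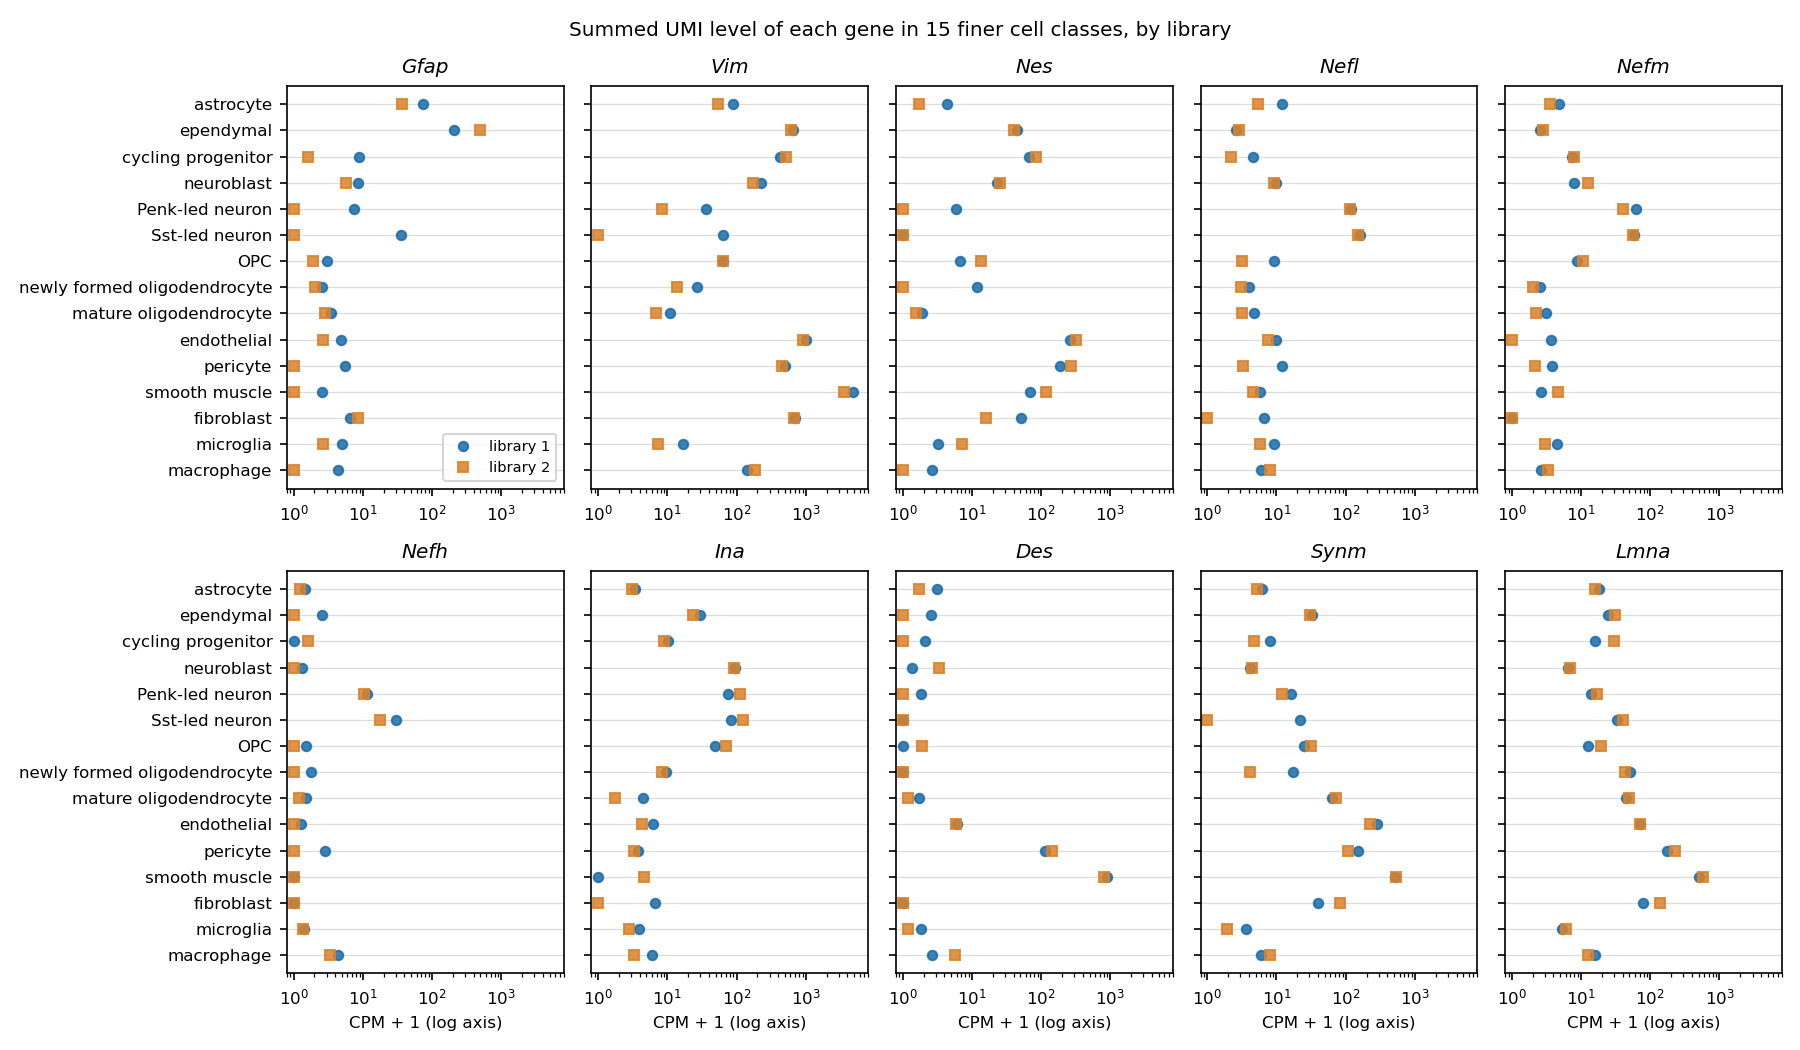
Level of each of the 10 genes (x axis, CPM + 1 on a log axis) in 15 finer cell classes (y axis), 1 panel a gene. Circles are library 1 and squares library 2. Des, Synm, Vim and Lmna peak in smooth muscle, Gfap in ependymal cells and the neurofilament genes in both neuron classes.

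Smooth muscle cells, which wrap arterioles and contract, had the highest level of Vim, Des, Synm and Lmna of all 15 finer classes. They numbered 60 in library 1 and 54 in library 2. Vim, the mesenchymal filament gene, stood at 4849 CPM in library 1 and 3595 CPM in library 2, and the next class, endothelial cells, at 991 and 925 CPM. Des was at 884 and 808 CPM in smooth muscle and at 111 and 143 CPM in pericytes. Those values do not overlap between the classes for either gene. Synm was at 507 and 536 CPM in smooth muscle, against 282 and 223 CPM in endothelial cells and 148 and 106 CPM in pericytes. Lmna was at 512 and 581 CPM, against 176 and 223 CPM in pericytes. Set against the log2 mean of the other finer classes, Vim, Lmna and Synm were higher in smooth muscle, where 18.3% of all genes were higher.

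Pericytes, the contractile cells of capillaries, expressed the same 4 genes at a lower level. The fit of smooth muscle against pericytes called 4 of the 10 genes, where 19.4% of all genes were called. Des was higher in smooth muscle by 3.03 on the log2 scale (SE 0.25, adjusted p = 6.77e-09), Vim by 3.42 (SE 0.35), Synm by 2.34 (SE 0.27) and Lmna by 1.76 (SE 0.19). Nes ran the other way, at 67.6 and 115 CPM in smooth muscle and 186 and 273 CPM in pericytes, with a log2 difference of -1.02 (SE 0.38, adjusted p = 0.0602). Its libraries do not overlap between the classes, but that difference did not pass the threshold, and with library sizes as the only scaling it did (-1.32, adjusted p = 0.0114). Against smooth muscle, endothelial cells differed in 5 of the 10 genes, where 29.5% of all genes were called. Of those, Nes was higher in endothelial cells and Des, Vim, Lmna and Synm were higher in smooth muscle.

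**Figure D2:**
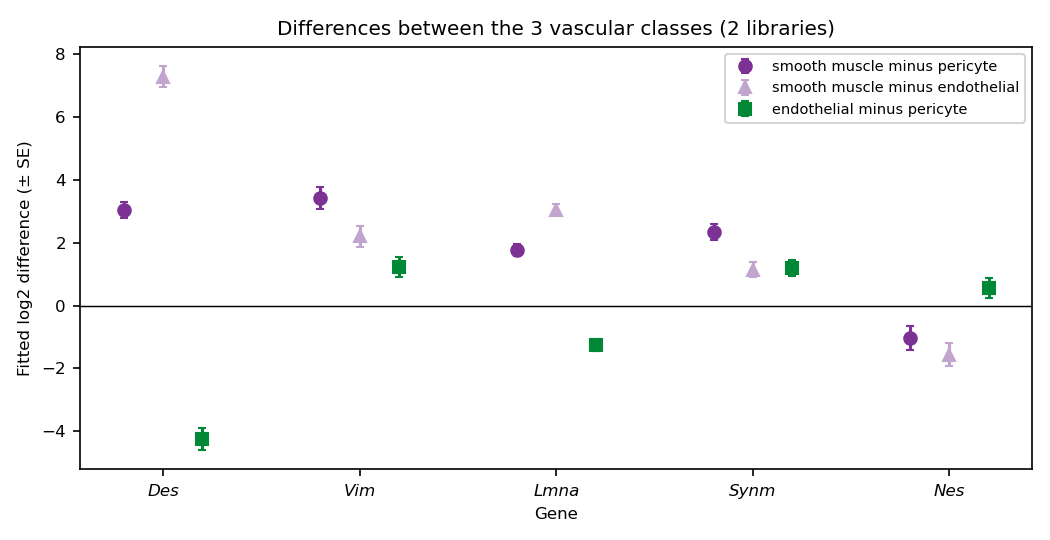
Fitted log2 difference (y axis, ± SE, 2 libraries) between pairs of vascular classes for Des, Vim, Lmna, Synm and Nes (x axis). Both smooth muscle comparisons lie above 0 for the first 4 genes, and Nes lies below 0 in both.

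Endothelial cells, the inner lining of vessels, had the highest level of Nes, a gene better known from neural stem cells. Nes was at 260 CPM in library 1 and 316 CPM in library 2. Pericytes followed at 186 and 273 CPM, and the 2 classes did not differ by the test (log2 difference 0.55, SE 0.31, adjusted p = 0.262). A Nes UMI was present in 42.8% of 802 endothelial cells in library 1 and 50.6% of 599 in library 2. Thinned to 1000 UMIs a cell, these shares were 18.4% and 22.1%. In microglia, taken as a class that should lack the gene, they were 0.098% and 0.31% after thinning. Endothelial cells also carried Synm and Vim at higher levels than pericytes, by 1.203 (SE 0.26) and 1.22 (SE 0.32) on the log2 scale, and less Des (-4.24, SE 0.35) and Lmna (-1.26, SE 0.19). The fit of endothelial cells against pericytes thus called 4 of the 10 genes, where 17.9% of all genes were called. Against the log2 mean of the other finer classes, Vim, Lmna and Synm were higher in endothelial cells, where 28.6% of all genes were higher, and in pericytes, where 21.6% were. The Lmna level of endothelial cells and the Vim level of pericytes were nonetheless below the arithmetic mean of the other classes in both libraries.

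Pericytes carried endothelial markers as well as their own. The summed level of the 7 endothelial markers was 8408 and 9734 CPM in pericytes, against 22897 and 26134 CPM in endothelial cells and 78.9 and 443 CPM in smooth muscle. None of the 7 was at 0 in pericytes. Pericyte markers in endothelial cells summed to 114 and 113 CPM, against 18707 and 19861 CPM in pericytes. The part of the endothelial transcripts in the pericyte levels of Nes, Vim and Synm was not tested. Des was at 5.11 and 4.88 CPM in endothelial cells, far below its level in pericytes.

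Fibroblasts, a small class of 35 and 21 cells, shared Vim and Lmna with the vessel wall but not Des. Vim was at 698 and 680 CPM and Lmna at 78.2 and 136 CPM, while no Des UMI was found, which allows up to 16.8 and 22.7 CPM. The 6 markers of mature oligodendrocytes summed to 33487 and 67100 CPM in fibroblasts, carried by Ptgds and Apod, while Klk6 was at 0. The 5 pericyte markers summed to 4916 and 7136 CPM in fibroblasts, against 18707 and 19861 CPM in pericytes, and 2 of the 5 were at 0. The part of either cell type in the fibroblast levels was not tested. Lmna was lower in fibroblasts than in pericytes by 1.02 on the log2 scale (SE 0.28, adjusted p = 0.0153). That pair called Des, Nes and Lmna, all higher in pericytes, where 12.8% of all genes were called, and the fitted fold of Des depends on the added count.

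Ependymal cells, the ciliated lining of the ventricles, and not astrocytes, had the highest level of Gfap, the gene by which astrocytes are usually stained. They numbered 84 and 64, and 25 and 30 of them had a Gfap UMI. The 5 highest cells of library 1 held 63 of 134 Gfap UMIs, and the 4 highest of library 2 held 130 of 270. The single highest cells had 18 and 66, so a minority of a small class carried this level. Gfap was at 210 CPM in library 1 and 500 CPM in library 2 in ependymal cells and at 73.6 and 35.5 CPM in astrocytes. Every ependymal value exceeded every astrocyte value, although the 2 libraries moved in opposite directions in the 2 classes. The log2 difference was 2.70 (SE 0.40, adjusted p = 2.64e-05). In all other classes the Gfap level was at most 7.72 CPM in either library, with the exception of 34.2 CPM in the Sst-led neurons of library 1. In library 2 those neurons had no Gfap UMI. The 10 astrocyte markers summed to 5567 CPM in the same neurons in library 1 and 1995 CPM in library 2, against 21238 and 22949 CPM in astrocytes, and their part in that Gfap value was not tested.

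Vim, Nes and Ina were also higher in ependymal cells than in astrocytes. Vim was at 649 and 610 CPM in ependymal cells, against 87.9 and 52.6 CPM in astrocytes. Nes was at 43.9 and 38.9 CPM, against 3.398 and 0.711 CPM, and Ina, the neuronal gene, at 28.2 and 22.2 CPM, against 2.43 and 2.13 CPM. The fit of ependymal cells against astrocytes called 6 of the 10 genes, where 30.6% of all genes were called. Gfap, Vim, Nes, Synm and Ina were higher in ependymal cells and Nefl was lower. Against the log2 mean of the other finer classes, Vim, Gfap and Ina were higher in ependymal cells, where 18.8% of all genes were higher, while Ina in library 2 was below the arithmetic mean. The 10 astrocyte markers summed to 5445 and 7035 CPM in ependymal cells, against 21238 and 22949 CPM in astrocytes. The 7 neuroblast markers summed to 3469 and 1768 CPM in ependymal cells, against 7116 and 7184 CPM in neuroblasts, and the 7 cycling progenitor markers to 234 and 478 CPM, against 4018 and 4828 CPM in cycling progenitors. None of these markers was at 0, and the part of these other cell types in the ependymal levels of Gfap, Vim, Nes and Ina was not tested.

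Astrocytes held low levels of most filament genes. Of the 6 genes, Gfap alone was higher in them than the log2 mean of the other finer classes (log2 difference 3.40, SE 0.34), where 29.9% of all genes were higher. Vim, Lmna, Synm and Ina were lower. The Gfap level of library 2, 35.5 CPM, was nonetheless below the arithmetic mean of the other classes, 37.2 CPM. A Gfap UMI was present in 145 of 1204 astrocytes in library 1 (12.04%, exact binomial 95% interval 10.3 to 14.0%) and 86 of 975 in library 2 (8.82%, 7.12 to 10.8%). Intervals and limits from counts cover counting error only. The share in microglia was 2.504% and 0.88%, at median depths of 6929 and 5504 UMIs, while astrocytes had median depths of 1899 and 2839 UMIs. After thinning, 5.63% and 2.86% of astrocytes and 0.294% and 0.103% of microglia had a Gfap UMI.

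Few astrocytes carried most of the Gfap. The 61 highest of 1204 cells in library 1 held 219 of 303 UMIs (72.3%), and the 49 highest of 975 in library 2 held 113 of 150 (75.3%). The same number of cells held 53.3% and 53.6% of the Vim UMIs. Only 9 and 6 astrocytes had 5 or more Gfap UMIs, and the highest cells had 39 and 14. Single cells differ in depth, which enters these shares. Astrocytes fell in 3 clusters, 1 of them deep, with median depths of 8636 and 7217 UMIs against 1191 to 1910 in the others. Gfap was at 73.8 and 29.5 CPM in the deep cluster, at 63.5 and 39.5 CPM in the second and at 86.4 and 80.6 CPM in the third, so the third was highest in both libraries and the other two changed order.

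The study turned on astrocytes that express Crym, the gene of μ-crystallin, so the filament genes were compared between Crym+ and Crym- astrocytes. A cell was Crym+ when its normalized Crym level passed 0.25, which here was every cell with a Crym UMI. There were 481 and 435 Crym+ cells and 723 and 540 Crym- cells. Gfap and Vim passed the filter of detection in 10% of either group, and the other 8 genes did not. Gfap was detected in 11.96% of Crym- and 8.73% of Crym+ cells and so passed only through the group where it was high. In library 1, Gfap stood at 38.2 CPM among Crym+ cells against 113 CPM among Crym- cells, and in library 2 at 15.3 against 61.1 CPM. The Crym+ value was the lower one within each library, and the groups did not overlap. The log2 difference was -1.71 (SE 0.17, edgeR adjusted p = 1.12e-11), where 9.45% of 6126 genes were called. This call rests on the pairing within libraries: without the replicate block the log2 difference was -1.70 and the adjusted p 0.739, and after thinning to 1000 UMIs it was 0.141 (log2 difference -1.15), while DESeq2 gave 7.14e-05. With no filter on genes the log2 difference was -1.64 (adjusted p = 2.84e-21). Crym+ cells were deeper, with median depths of 2583 and 5261 UMIs against 1623 and 1975. In the deep cluster alone, an alternative added after the data were seen, Gfap stood at 25.4 and 14.1 CPM in Crym+ and at 148 and 53.6 CPM in Crym- cells.

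Vim showed no such difference. It was at 78.7 and 64.5 CPM in Crym+ cells and 98.1 and 37.5 CPM in Crym- cells, lower in Crym+ in library 1 and higher in library 2. The log2 difference was 0.11 (SE 0.15, adjusted p = 0.782), with -0.26 from library 1 by itself and 0.80 from library 2. The difference between the responses of Gfap and Vim was not tested.

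**Figure D3:**
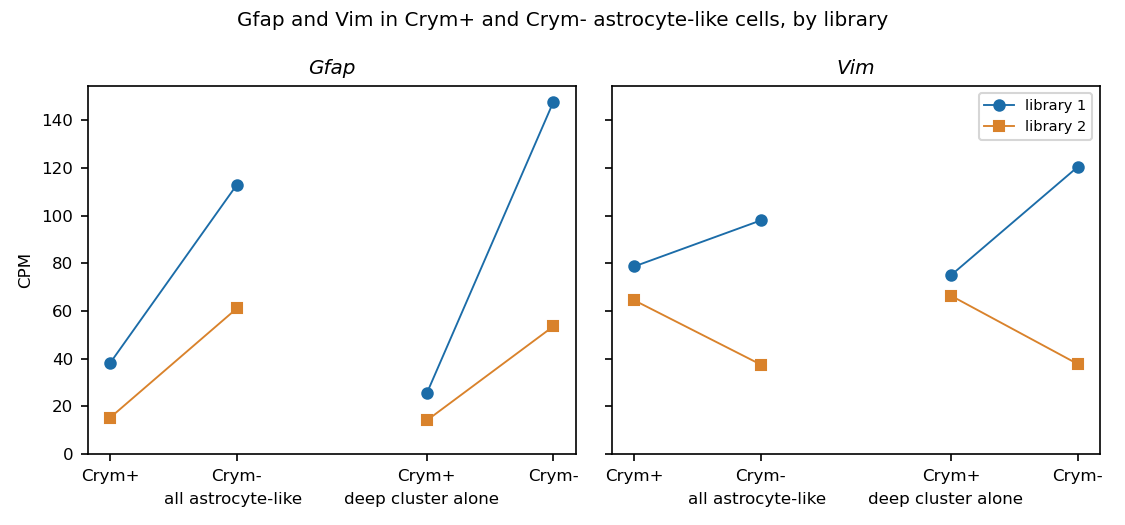
Gfap (left) and Vim (right) level (y axis, CPM) in Crym+ and Crym- astrocytes, for all astrocytes and for the deep cluster alone. Lines join the 2 groups of 1 library. Both lines of Gfap rise from Crym+ to Crym-, while Vim rises in library 1 and falls in library 2.

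Cycling progenitors and neuroblasts, the dividing and the migrating young cells of the neighbouring subventricular zone, differed in Vim, Nes and Ina. Vim was at 420 and 516 CPM in cycling progenitors and 226 and 173 CPM in neuroblasts. Nes was at 66.7 and 82.7 CPM, against 22.4 and 24.5 CPM. Ina ran the other way, at 9.37 and 8.03 CPM in progenitors and 94.1 and 89.99 CPM in neuroblasts (log2 difference -3.26, SE 0.37, adjusted p = 1.09e-07). The fit of cycling progenitors against neuroblasts called 5 of the 10 genes, where 27.9% of all genes were called. Vim, Nes and Lmna were higher in progenitors, and Nefl and Ina were higher in neuroblasts. Against the log2 mean of the other finer classes, Vim was higher in cycling progenitors, where 28.9% of all genes were higher, although its level in library 1 was below the arithmetic mean.

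Both classes named as neurons carried the 4 neuronal filament genes. The Penk-led class held 191 and 171 cells and the Sst-led class 296 and 94. The 8 neuron markers summed to 2081 and 4739 CPM in the Sst-led class, against 8957 and 11204 CPM in the Penk-led class. In the Sst-led class the 8 oligodendrocyte markers summed to 7722 and 1765 CPM and the 10 astrocyte markers to 5567 and 1995 CPM. The 5 erythroid markers summed to 634 and 5835 CPM there. Sst, Cck, Slc17a7, Slc5a7 and Camk2a led that class, and the part of other cell types in its levels was not tested. The 6 interneuron markers, Sst and Npy foremost, summed to 77.1 and 3154 CPM in the Penk-led and 771 and 5778 CPM in the Sst-led class, so both classes differed in these markers between libraries, and their part in the filament levels was not tested. Nefl was at 117 and 114 CPM in Penk-led and 160 and 152 CPM in Sst-led neurons, and at most 11.04 CPM in any other class. Nefm was at 61.7 and 39.2 CPM in Penk-led and 57.9 and 56.2 CPM in Sst-led neurons, Nefh at 10.6 and 9.32 CPM and at 28.9 and 16.9 CPM. Nefl and Nefm were far above their levels elsewhere, while for none of the 3 genes did the neuron classes differ by the test. Nefh rests on 13 and 10 UMIs in Penk-led and 11 and 3 in Sst-led neurons, and its Penk-led level did not differ by the test from the next class, macrophages (adjusted p = 0.224). Nefl and Ina were higher than the log2 mean of the other finer classes in Penk-led neurons, where 28.7% of all genes were higher, and in Sst-led neurons, where 15.9% were.

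Between the neuron classes the fit called Lmna alone of the 10 genes, where 16.1% of all genes were called. Lmna was at 31.6 and 39.3 CPM in Sst-led and 12.99 and 15.9 CPM in Penk-led neurons (log2 difference 1.37, SE 0.44, adjusted p = 0.0258). It lost that call after thinning (0.43, adjusted p = 0.823) and with at least 500 genes a cell (1.28, adjusted p = 0.0626). Sst-led neurons are shallow, with median depths of 685 and 994 UMIs, and mitochondrial genes gave a median of 9.98% and 22.8% of their UMIs. The part of RNA quality and of other cell types in their levels was not tested. For Nefl the difference was 0.53 (SE 0.28, adjusted p = 0.241), and for Nefh 1.32 (SE 0.66, adjusted p = 0.192).

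Ina, α-internexin, was not restricted to mature neurons. Its order was Sst-led neurons (81.6 and 124 CPM), neuroblasts (94.1 and 89.99 CPM) and Penk-led neurons (73.9 and 110 CPM), and neighbours in this order did not differ by the test (adjusted p = 0.947 and 0.686). OPCs, the oligodendrocyte precursor cells, followed at 47.2 and 69.1 CPM, below Penk-led neurons by 0.78 on the log2 scale (SE 0.30, adjusted p = 0.0364). That pair called 5 of the 10 genes, Nefl, Nefm, Nefh and Ina higher in Penk-led neurons and Vim higher in OPCs, where 44.9% of all genes were called. Nefl, in contrast, fell steeply from Penk-led neurons to neuroblasts, at 8.96 and 8.18 CPM (log2 difference 3.56, SE 0.33). The fit of Penk-led neurons against neuroblasts called 7 of the 10 genes, where 45.8% of all genes were called. Nefl, Nefm, Nefh, Lmna and Synm were higher in Penk-led neurons and Vim and Nes were higher in neuroblasts.

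In the oligodendrocyte lineage, precursors and myelinating cells differed in filament genes about as often as in all genes. OPCs had Vim at 63.3 and 62.9 CPM and Ina at 47.2 and 69.1 CPM, and mature oligodendrocytes had 9.81 and 5.83 CPM of Vim and 3.49 and 0.782 CPM of Ina. Synm was at 24.4 and 30.6 CPM in OPCs and 63.1 and 71.8 CPM in mature cells, and Lmna at 11.4 and 18.2 CPM and at 44.0 and 48.2 CPM. None of these pairs of values overlaps. The fit of OPCs against mature oligodendrocytes called 6 of the 10 genes, where 54.1% of all genes were called. Vim, Nes, Nefm and Ina were higher in OPCs, and Synm (log2 difference -2.13, SE 0.28) and Lmna (-2.43, SE 0.23) were higher in mature cells.

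Newly formed oligodendrocytes, the stage between, had Lmna values that overlapped those of mature cells but much less Synm. They numbered 99 and 85. Synm was at 16.2 and 3.15 CPM in newly formed cells, and the rise to mature cells was 3.22 on the log2 scale (SE 0.37, adjusted p = 5.43e-08). Lmna was at 50.8 and 41.98 CPM, which overlaps the mature values. OPCs against newly formed cells gave 4 calls of the 10 genes, where 30.4% of all genes were called. Vim, Nefm and Ina were higher in OPCs and Lmna was lower by 1.86 on the log2 scale (SE 0.27). Newly formed against mature cells gave 3 calls, Synm, Nes and Lmna, where 37.8% of all genes were called. Of these Lmna, higher in mature cells by 0.57 (SE 0.21, adjusted p = 0.0336), turned to -0.04 with library sizes as the only scaling. Nes, at 10.8 and 0 CPM in newly formed and 0.892 and 0.568 CPM in mature cells, rests on library 1. In library 2 by itself its log2 difference, mature minus newly formed, was 0.95. The 7 endothelial markers summed to 404 and 57.7 CPM in newly formed cells, against 22897 and 26134 CPM in endothelial cells. Their part in the Nes and Synm levels of newly formed cells was not tested.

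**Figure D4:**
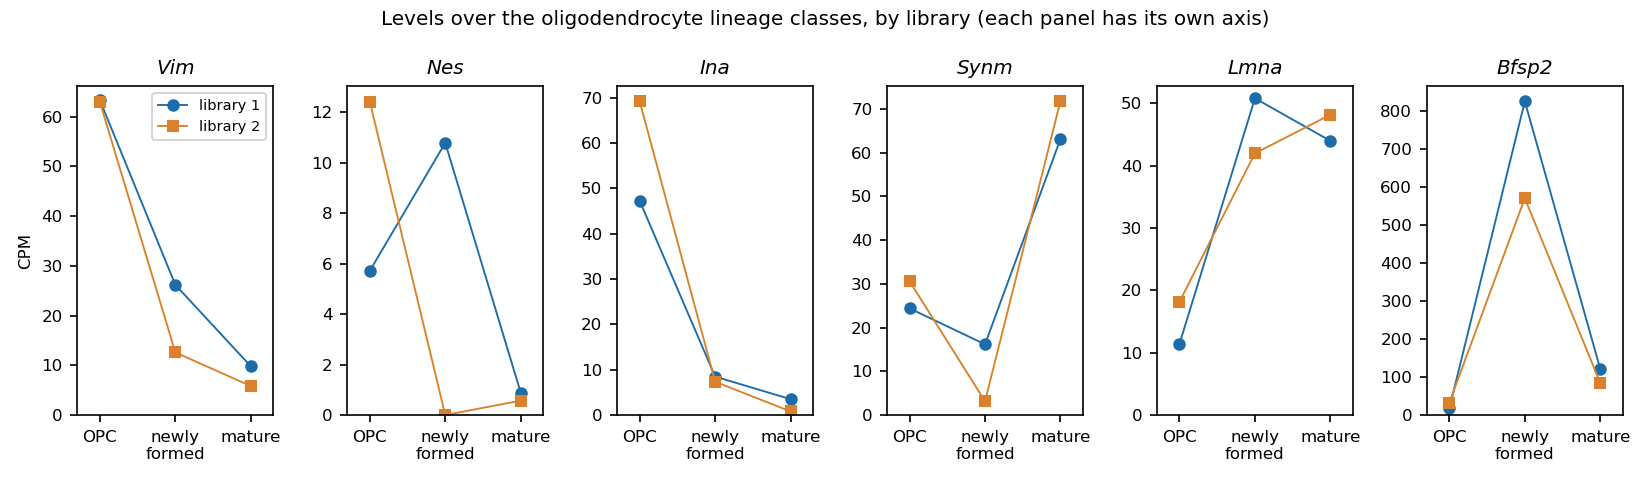
Level (y axis, CPM, 1 scale a panel) of Vim, Nes, Ina, Synm, Lmna and Bfsp2 in OPCs, newly formed and mature oligodendrocytes (x axis). Circles are library 1 and squares library 2. Vim and Ina fall from OPCs on, Synm rises only in mature cells, and Bfsp2 peaks in newly formed cells.

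Synm in mature oligodendrocytes was measured in many cells. A UMI was present in 407 of 1124 cells in library 1 and 498 of 1095 in library 2, at median depths of 11123 and 12210 UMIs. After thinning, the shares were 4.47% and 6.35%, against 0.098% and 0.103% in microglia. Mature oligodendrocytes held Synm above astrocytes by 4.07 on the log2 scale (SE 0.33), and Lmna by 1.90 (SE 0.20). Vim, Gfap and Nefl were lower. These 5 calls of 10 stand in a pair where 57.6% of all genes were called. Synm and Lmna were higher than the log2 mean of the other finer classes in mature oligodendrocytes, where 37.4% of all genes were higher, but both levels were below the arithmetic mean in both libraries.

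Microglia, the resident immune cells, held low levels of most filament genes. Against the log2 mean of the other finer classes, Vim, Lmna, Synm and Ina were lower in them, where 17.8% of all genes were lower, and none of the 6 genes was higher. Vim stood at 15.6 and 6.39 CPM and Lmna at 4.37 and 5.12 CPM. Macrophages, the border and perivascular relatives of microglia, held Vim at 140 and 185 CPM, higher by 3.68 on the log2 scale (SE 0.41, adjusted p = 2.16e-07). Vim and Lmna were the 2 of 10 genes called in that pair, where 18.2% of all genes were called. The 5 T cell markers summed to 33.3 and 853 CPM in the macrophage class, which held 94 and 75 cells. At a higher resolution macrophages numbered 80 and 50. A cluster of 14 and 25 cells then had Cd74, Igkc, Ccl5, S100a8 and Trbc2 among its leading genes. The marker rule named that cluster T cell, and it was set to unnamed by hand. The part of other blood cells in the Vim level of macrophages was not tested.

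**Figure D5:**
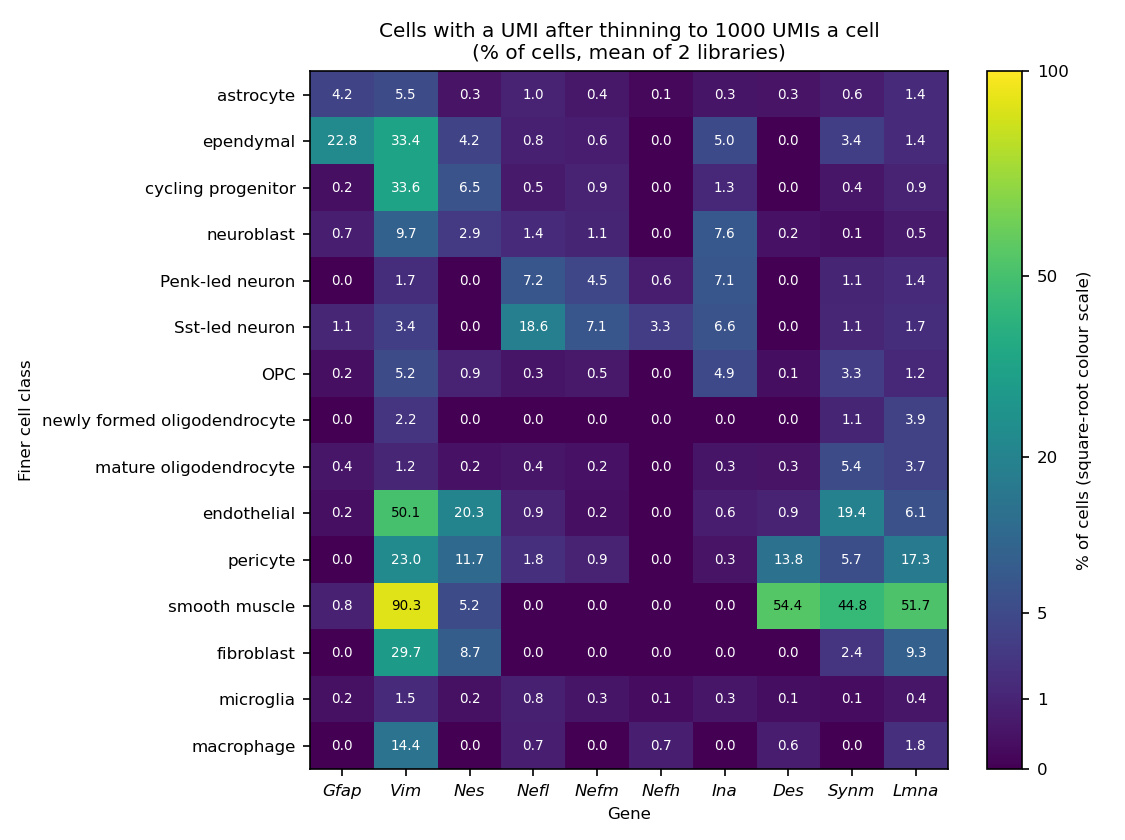
Percent of cells with a UMI of each gene (columns) in each finer class (rows) after thinning each cell to 1000 UMIs, as the mean of 2 libraries, with colour on a square-root scale. Smooth muscle has the highest shares of Vim, Des, Synm and Lmna, ependymal cells of Gfap and Sst-led neurons of Nefl. Cells under 1000 UMIs are left out, and the Sst-led share of Nefl rests on 12 and 11 cells with a UMI. Without thinning, 40 of 296 and 16 of 94 Sst-led neurons had a Nefl UMI, against 45 of 191 and 46 of 171 Penk-led neurons.

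Pairs of filament genes were also looked for in the same cells. In unthinned counts, 37.9% of 145 Gfap+ astrocytes in library 1 had a Vim UMI, against 14.9% of 1059 without Gfap, and 29.1% of 86 against 14.3% of 889 in library 2. Deep cells hold more of every gene, and after thinning to 1000 UMIs the shares were 14.8% against 6.51% in library 1 and 0% of 25 cells against 4.12% in library 2. At this depth the difference thus went both ways between libraries. At 2000 UMIs Vim was in 26.4% of 53 Gfap+ astrocytes against 12.1% of 520 others in library 1. In library 2 it was in 20.0% of 35 against 7.16% of 545, so the reading depends on depth and on few cells. Ependymal cells kept the difference in both libraries at 1000 UMIs. Vim was in 57.1% of 14 Gfap+ and 27.3% of 66 other ependymal cells in library 1. Library 2 gave 9 of 18 and 13 of 46. The exact binomial 95% intervals overlap in both libraries. In endothelial cells, Nes was in 57.5% of Vim+ and 16.6% of Vim- cells of library 1 before thinning, and in 20.3% and 16.6% at 1000 UMIs. At 2000 UMIs the shares were 34.1% and 35.2% in library 1 and 43.3% and 35.2% in library 2. Of the 12 gene pairs and classes examined, 5 had the higher share among the positive cells in both libraries at 1000 UMIs.

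Lists of related genes, 3 in all, were described beside the 10, with the counts read against the same background of 49.5% over the 9 classes. Of 15 other intermediate filament genes, 5 were expressed enough to be tested, and 23 of their 45 tests were called, 11 higher and 12 lower. Bfsp2 encodes phakinin, a filament protein of the eye lens. It was at 826 and 571 CPM in newly formed oligodendrocytes and 121 and 84.1 CPM in mature ones, and at 17.6 and 32.8 CPM in OPCs. Lmnb1, lamin B1, was at 587 and 671 CPM in cycling progenitors and 153 and 187 CPM in neuroblasts, and at most 81.5 CPM in any other class. Bfsp1, the lens partner of Bfsp2, was at most 11.2 CPM in every finer class, with 3.19 and 5.40 CPM in mature oligodendrocytes.

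Of 12 linker and turnover genes, 7 were tested, with 23 higher and 23 lower calls in 63 tests. Dtna, α-dystrobrevin of the dystrophin complex, was at 670 and 702 CPM in astrocytes and 376 and 395 CPM in ependymal cells. Dmd, dystrophin, was at 313 and 425 CPM in pericytes, 277 and 385 CPM in smooth muscle and 185 and 288 CPM in astrocytes, and at 1.69 and 1.10 CPM in microglia. Plec, plectin, which links filaments to junctions, was at 216 and 254 CPM in smooth muscle and 198 and 169 CPM in endothelial cells, the classes with the most Synm.

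Nuclear envelope partners, the last list, numbered 14, all tested, with 39 higher and 37 lower calls in 126 tests. Syne2, a nesprin that ties the nucleus to the cytoskeleton, was highest in smooth muscle at 404 and 441 CPM, where Lmna was also highest. Syne1, its relative, was at 419 and 330 CPM in Penk-led neurons and 306 and 390 CPM in smooth muscle, an order that changed between libraries, and stood at 6.76 and 3.65 CPM in microglia. Tmpo, the lamina-associated polypeptide 2 gene, was at 616 and 750 CPM in cycling progenitors, where Lmna was at 14.9 and 29.0 CPM.

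Genes with the most similar pattern were taken over 18 sums of class and library, by Pearson's r of log2(CPM + 10), as a description. Points share a library and their clusters, and no test was made. The nearest to Des were Ogn, Mustn1 and Saa2 (r of 0.996 to 0.997), to Gfap Thbs4, Kcne1l and Celsr1 (0.924 to 0.966), and to Vim Sh3bgrl, Syne2 and 2510046G10Rik (0.928 to 0.934). The nearest to Nes were Csrp2, Mxra7 and Zic2 (0.953 to 0.958), to Synm Plat, Slc9a3r2 and Fam76a (0.951 to 0.983), and to Lmna Lamc1, Nid1 and Syde1 (0.936 to 0.949). Nefm was nearest to Camk1g, Erc2 and Cacna2d3 (0.987 to 0.994), Nefh to Gda, Ryr1 and Ankrd63 (0.974 to 0.983), and Ina to Ly6h, Chga and Pcdha11 (0.984 to 0.986).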

How the data were processed

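Dissociated striatum of adult mice was profiled as 2 libraries of single cells by 10x Genomics. The authors aligned reads to mm10 with Cell Ranger and deposited filtered matrices of raw UMI counts per gene and cell. The file headers and labels name Cell Ranger 4.0, while the study's methods name another version. Total UMIs and barcodes per library are given in the report. Depth limits shares of cells, and the total UMIs of a class limit its summed levels. In Sst-led neurons, 3 UMIs equal 7.89 CPM in library 1 and 16.9 CPM in library 2.

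The 10 members, the gene lists and the class markers were chosen with earlier results of these data known. Cells with at least 300 genes were kept, doublets called by Scrublet were removed (96 in library 1, 1.39%, and 159 in library 2, 2.96%), and cells were integrated and clustered with Seurat, leaving out 52 genes including the members. Clusters were named from 3 or more markers, and some of the names were then changed by hand. The rule had named the Penk-led class direct-pathway neuron, the Sst-led class interneuron and the endothelial class capillary endothelial. At the higher resolution, its name T cell was removed from the small cluster described with the macrophages. At the finer resolution, 97 erythroid cells were left out. Counts were summed per class and library and tested with edgeR's quasi-likelihood test with library as a block, TMM scaling and Benjamini-Hochberg adjustment over all genes tested. Log2 differences from this fit were computed with an added count of 2. Each SE was derived from the test's F statistic and a fold with a smaller added count. A difference over its SE therefore does not give the p-value, above all for genes with few UMIs. Named were all members, from each related list the 3 genes with the largest absolute log2 difference between a class and the mean of the others past the threshold and in the same direction in both libraries, and for each member the 3 genes of highest r. Those of Nefl are not reported here. Replicate numbers mark the library that every class shares, so they pair the sums. Shares of cells were also computed after thinning to 1000 UMIs (10516 cells kept, 1491 left out) and carry exact binomial 95% intervals. Tested on simulated data, the fit of 1 finer class against the mean of the others recovered 48% of 2-fold and 100% of 4-fold changes. It made 10 false calls among 14435 genes. Changes were placed only in genes with many counts, at 1 fixed spread, so these rates do not cover genes with few UMIs. Alternatives were DESeq2, other scalings, filters, resolutions and replicates left out.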

Additional observations from a re-analysis of the deposited data

How the results depend on the processing

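Over the 9 classes, 50 of 90 gene and class tests were called, and 48 to 60 under other scaling, DESeq2, no filter on genes, no replicate block, other cell filters or a finer resolution. Thinning to 1000 UMIs left 30 of 81. For the related genes, 145 of 234 tests were called, and 84 of 207 after thinning. Of all tests over the 9 classes, 49.5% were called without thinning. Between smooth muscle and pericytes, between the neuron classes and within the oligodendrocyte lineage, 18 of 50 tests were called, and 11 of 45 after thinning. In those pairs, 16.1% to 54.1% of all genes were called without thinning. Shares of all genes under the alternatives are not given for these counts, so their changes are not read as particular to these genes. Of the 2 genes tested between Crym+ and Crym- astrocytes 1 was called, and 0 without the replicate block or after thinning; for all genes the counts were 221 higher and 358 lower, 16 and 29 by DESeq2, 0 and 1 without the block, and 21 and 24 after thinning. The replicate block changed the Crym call but moved none of the other counts by over 1.5 times. In mature against newly formed oligodendrocytes, values that turned were Nes (0.56 thinned, 0.95 without replicate 1), Ina (0.75 thinned) and Lmna (-0.036 with library sizes alone). Nes kept its direction without replicate 2 (-2.41). Vim in Crym+ against Crym- astrocytes turned in the deep cluster (-0.050) and without replicate 2 (-0.26). It kept its direction without replicate 1 (0.80). Gfap in the neuroblast class turned at resolution 0.32 (-0.13), where the classes differ. The coarse neuroblast class, which merged in cycling progenitors and most ependymal cells, had Gfap at 26.0 and 93.4 CPM. Finer neuroblasts had 7.58 and 4.67 CPM, and ependymal cells 210 and 500 CPM. Other causes were not tested. Of 90 combinations of gene and coarse class, 25 had a UMI in at least 10% of cells in both libraries, 9 after thinning to 1000 UMIs and 13 at 2000. Of the 30 most similar genes, 18 recurred with 1 CPM added, 9 to 10 with a replicate left out and 3 over finer classes.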

Other observations

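In the 97 erythroid cells left out of the classes, 86 of them in library 1, Vim had 11 UMIs (15.4 CPM) in library 1.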
